A study of Mus musculus with 19 samples.

Results

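The 10 genes described here make and load the peptides that MHC class I shows to CD8 T cells, and they were measured by bulk RNA-seq in mouse oral squamous cell carcinomas under 5 treatments. They were chosen by symbol: H2-K1, H2-D1, B2m, Tap1, Tap2, Tapbp, Psmb8, Psmb9, Psmb10 and Nlrc5, each matched through its Ensembl identifier to 1 of the 55487 rows of the deposited count table. All 10 passed the filter on low counts, which kept 16909 genes, and no member had fewer than 91 reads in any library.

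The tumours arose in C57BL/6J mice that drank 100 ug/ml of the oral carcinogen 4NQO for 10 weeks from 6 weeks of age and then plain water, and all 5 groups share that exposure. Vehicle was given in 4 libraries, regorafenib at 5 mg/kg/day in 4, anti-PD1 in 3, anti-PD1 plus regorafenib (called the combination below) in 5, and an anti-CD40 agonist in 3. Regorafenib is an inhibitor of several receptor tyrosine kinases, anti-PD1 blocks an inhibitory receptor of T cells, and an anti-CD40 agonist stimulates antigen-presenting cells. The sources used here give neither the antibody doses nor how mice were assigned to the anti-CD40 agonist. Whether 1 library stands for 1 mouse is not stated in the labels, and p-values therefore rest on the library-to-library spread, part of which may be technical. Total counts ran from 16776177 to 24969492 per library. Krt5, a basal keratin of squamous epithelium, lay between 1940.2 and 3579 CPM (read counts scaled to library size) over the 19 libraries. Squamous epithelium was thus present throughout, and whether it was tumour or normal epithelium was not tested. Skeletal muscle genes were also abundant, as a sum of 22890 to 46916 CPM over 12 markers, and no marker of either list was at 0 in all libraries.

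MHC class I is a heavy chain held by beta-2-microglobulin (B2m) and filled with a peptide. In C57BL/6 mice the classical heavy chains are encoded by H2-K1 and H2-D1. Peptides are cut in the cytosol by the proteasome, in which Psmb8, Psmb9 and Psmb10 can replace the constitutive catalytic subunits Psmb5, Psmb6 and Psmb7. The Tap1 and Tap2 transporter pumps them into the endoplasmic reticulum, and tapasin (Tapbp) bridges the transporter to the empty heavy chain. Nlrc5 is a transactivator of these genes, and interferon gamma, in part through Irf1, is a known inducer of the whole set. Leukocytes carry more class I than most epithelial cells, so in bulk tissue the level of these genes also depends on which cells are present.

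Of the 10 genes, 7 lie in the MHC on chromosome 17 of GRCm38. From low to high coordinates these were Tapbp (chr17:33915899-33929292), H2-K1 (chr17:33996017-34000347), Psmb9 (chr17:34181987-34187764), Tap1 (chr17:34187553-34197225), Psmb8 (chr17:34197721-34201454), Tap2 (chr17:34203527-34216321) and H2-D1 (chr17:35262730-35267499). B2m lies at chr2:122147686-122153083. Nlrc5 (chr8:94434356-94527272) and Psmb10 (chr8:105935735-105938444) share chromosome 8. All 10 are protein-coding. The counts cover whole genes, so exons and untranslated parts were not measured apart. Psmb9 and Tap1 overlap on opposite strands by 212 bases, and Tapbp overlaps 3422 bases of Zbtb22 on its own strand. The sources used here do not give the strand setting of the counting, so reads in these overlaps may have been assigned to either gene or to none. H2-K1 and H2-D1 are also closely similar in sequence to each other and to the H2-Q genes over much of their length, which leaves the split of reads among them uncertain.

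The promoters of 3 genes are shown because they carry the letters by which class I promoters are known, and that of Psmb9 because it faces Tap1. The windows come from RefSeq on GRCm38.p6 and were used for 8 of the 10 genes (those of Tap2 and Nlrc5 were not used here), and each runs from 250 bases before the annotated start to 50 after it, 5′ to 3′ on the gene's strand. Capitals mark matches, on either strand, to the NF-kappa-B consensus or to an interferon-response type motif (GAAA, any 2 bases, GAAA). H2-K1 is on the minus strand (chr17:34000298-34000597), H2-D1 on the plus strand (chr17:35262844-35263143), B2m on the plus strand (chr2:122147437-122147736) and Psmb9 on the minus strand (chr17:34187281-34187580).
H2-K1: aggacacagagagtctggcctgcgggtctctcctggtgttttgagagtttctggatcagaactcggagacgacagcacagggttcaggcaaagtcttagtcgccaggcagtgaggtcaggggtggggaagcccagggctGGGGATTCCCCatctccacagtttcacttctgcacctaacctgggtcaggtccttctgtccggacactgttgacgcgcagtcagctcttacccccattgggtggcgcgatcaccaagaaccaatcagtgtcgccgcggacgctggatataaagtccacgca
H2-D1: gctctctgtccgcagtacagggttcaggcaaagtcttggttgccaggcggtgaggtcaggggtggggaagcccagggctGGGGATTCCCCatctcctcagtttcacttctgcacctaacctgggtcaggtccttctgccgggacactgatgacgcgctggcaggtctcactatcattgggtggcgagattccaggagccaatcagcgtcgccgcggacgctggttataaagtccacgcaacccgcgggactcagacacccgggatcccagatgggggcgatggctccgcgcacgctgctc
B2m: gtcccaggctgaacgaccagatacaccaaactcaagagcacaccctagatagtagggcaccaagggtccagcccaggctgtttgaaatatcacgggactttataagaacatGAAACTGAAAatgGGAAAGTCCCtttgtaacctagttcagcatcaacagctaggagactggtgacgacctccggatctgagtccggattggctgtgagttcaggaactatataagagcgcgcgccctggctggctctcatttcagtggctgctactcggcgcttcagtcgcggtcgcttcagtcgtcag
Psmb9: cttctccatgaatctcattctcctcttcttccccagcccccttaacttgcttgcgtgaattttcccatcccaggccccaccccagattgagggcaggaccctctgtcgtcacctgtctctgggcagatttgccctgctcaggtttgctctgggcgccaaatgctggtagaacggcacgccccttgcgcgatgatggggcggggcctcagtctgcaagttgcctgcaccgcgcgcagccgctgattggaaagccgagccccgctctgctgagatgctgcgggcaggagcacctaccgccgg

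An NF-kappa-B match stood in 3 of the 8 member promoters (H2-K1, H2-D1 and B2m) and in 8.46% of 32851 RefSeq promoters of the same length. In H2-K1 it began at -111 and in H2-D1 at -171, each as 2 overlapping matches, and it sat inside a run of 47 bases that the H2-K1 and H2-D1 windows share letter for letter. Among the 8 windows, B2m alone held the interferon-response type motif in the exact spelling given, at -139, against 3.44% of all promoters. Its NF-kappa-B match followed at -126 without overlap. Variants of that spelling were not searched, so the other promoters may still hold an interferon-response element. The core of a cyclic AMP response element, TGACG, was present in 5 of 8 (B2m, H2-K1, H2-D1, Psmb9 and Tap1) and in 20.8% of all promoters. A CCAAT box was present in 6 of 8 and in 37.4% of all. The Tap1 and Psmb9 windows shared 275 bases, because their RefSeq start sites lie 226 bases apart and point away from each other. Their TGACG matches are the same bases, as are their CCAAT matches, so the counts above include each of these sites for both genes. The overlap of 212 bases given above is that of the GENCODE gene spans. These are letter matches only, and binding was not measured.

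The most abundant transcripts were the 3 that form the class I molecule itself. On the scale of CPM per kilobase of the principal transcript, vehicle libraries averaged 370 ± 57.1 (SD, n = 4) for B2m, 220.3 ± 32.9 for H2-K1 and 197 ± 13.9 for H2-D1. Tapbp followed at 25.7 ± 0.355 and Tap1 at 11.6 ± 2.00. Psmb10 (8.05 ± 1.46), Psmb8 (7.79 ± 1.18), Tap2 (7.23 ± 0.487), Psmb9 (5.28 ± 1.04) and Nlrc5 (4.64 ± 0.618) were lowest. The vehicle range of B2m (286 to 411) lay above that of H2-K1 (185 to 259.6), whereas the ranges of H2-K1 and H2-D1 overlapped, as did those of Tap1 and Psmb10, of Psmb10, Psmb8 and Tap2, and of Psmb9 and Nlrc5. Divided by the length of all annotated exons instead, H2-D1 (160.5) came above H2-K1 (121), so the order of the heavy chains depends on the length used.

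The anti-PD1 group had the highest mean of the 5 groups for all 10 genes, a position it held for 21.8% of all tested genes. Vehicle had the lowest mean for 5 members (16% of all tested genes), the anti-CD40 agonist for 4 (16.2%) and regorafenib for 1 (29%). A single library, anti-PD1 replicate 3, was the highest of all 19 libraries for each of the 10 genes, against 4.48% of all tested genes, and the main comparisons are also given without it. In bulk RNA, fewer cells of a type and less RNA per cell cannot be told apart.

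H2-K1 encodes a classical heavy chain. Its level was 299, 420.3, 378 and 329 CPM in the vehicle libraries and 360.0, 463, 425 and 472 CPM under regorafenib. Under anti-PD1 it was 494, 487 and 579 CPM, and under the combination 424, 412, 362, 442 and 485 CPM. The anti-CD40 libraries held 364, 280.4 and 408 CPM. All 3 anti-PD1 libraries therefore lay above every library of the other 4 groups. H2-D1, the other heavy chain, had 379.9, 445, 429 and 401 CPM with vehicle and 507, 472 and 586 CPM under anti-PD1. Its range was 394 to 531 CPM under regorafenib, 403 to 475 CPM under the combination and 331 to 448 CPM under the anti-CD40 agonist, so for H2-D1 the anti-PD1 libraries cleared the vehicle and anti-CD40 libraries but overlapped the regorafenib and combination libraries.

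B2m, the light chain common to all class I molecules, stood at 246, 353, 332 and 342 CPM with vehicle. Regorafenib libraries held 281, 369.7, 323 and 409 CPM, and anti-PD1 libraries 420.1, 445 and 623 CPM. The combination gave 421, 335, 314, 409 and 386 CPM, and the anti-CD40 agonist 308, 236 and 311 CPM. The anti-PD1 libraries were above all vehicle, regorafenib and anti-CD40 libraries, but the highest combination library lay just above the lowest anti-PD1 library.

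**Figure D1:**
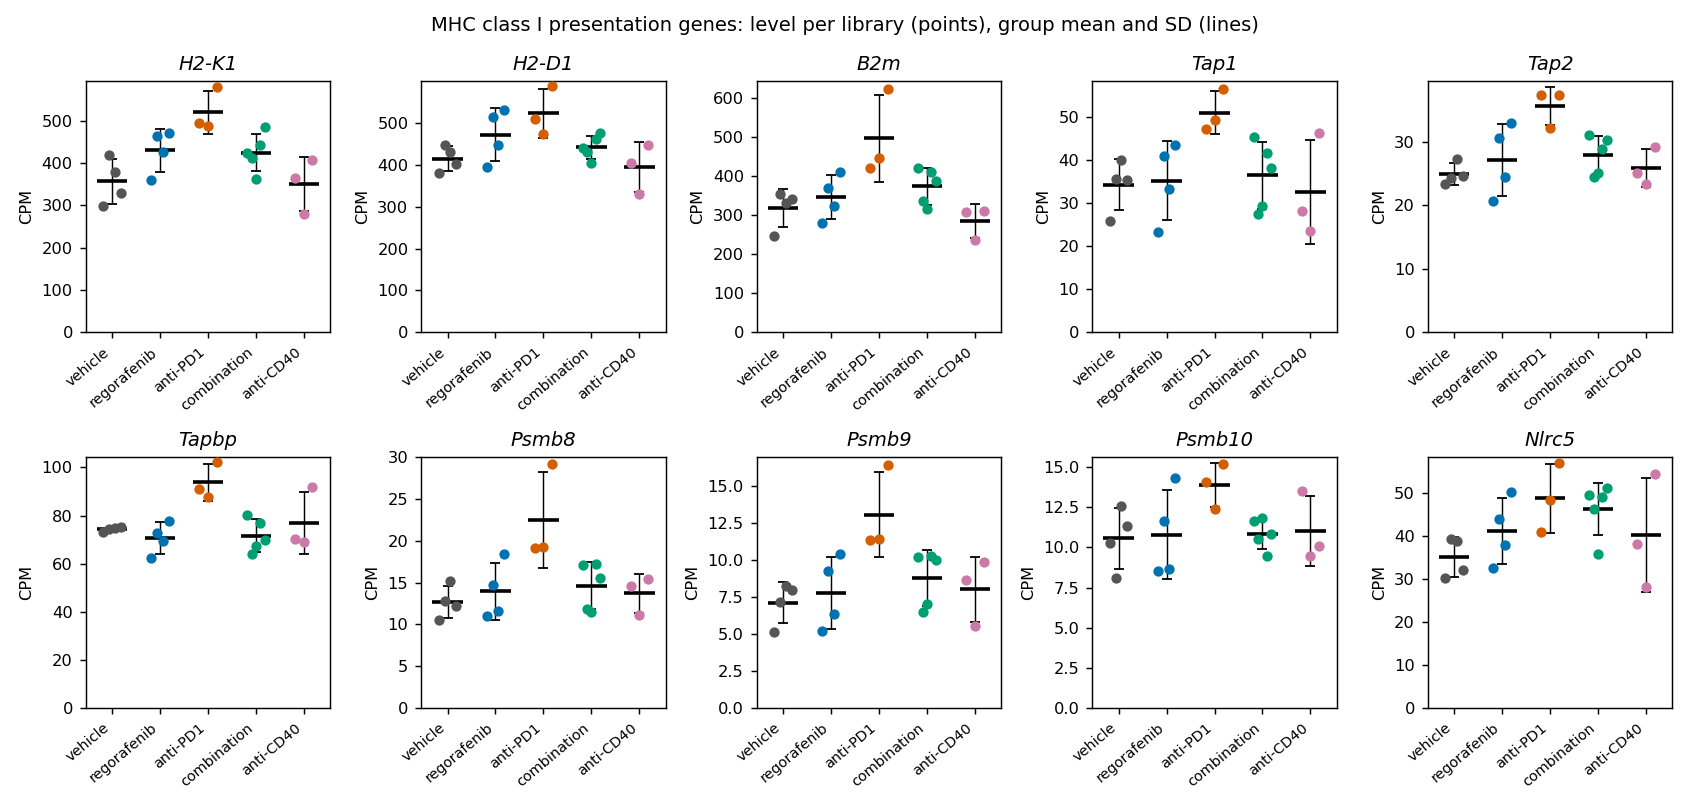
Level of each of the 10 genes in CPM (vertical axes, from 0) in the 19 libraries, by treatment group, with libraries as points, group means as long bars and the SD as whiskers. In every panel the highest point is anti-PD1 replicate 3.

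The transporter genes were also highest under anti-PD1. Tap1 was measured at 26.0, 35.7, 39.999 and 35.4 CPM with vehicle and at 47.1, 49.4 and 56.6 CPM under anti-PD1. Its range was 23.2 to 43.4 CPM under regorafenib, 27.5 to 45.4 CPM under the combination and 23.5 to 46.3 CPM under the anti-CD40 agonist. Thus the anti-PD1 libraries were again above all 16 others, by a margin of under 1 CPM over the nearest anti-CD40 library. Tap2 was measured at 23.3, 24.3, 27.3 and 24.6 CPM with vehicle and at 37.3, 32.2 and 37.3 CPM under anti-PD1. Under regorafenib it spread from 20.6 to 32.9 CPM, with 1 library above the lowest anti-PD1 library.

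Tapbp, which encodes tapasin, was the least variable member among vehicle libraries, at 73.0, 74.6, 74.8 and 75.4 CPM. Regorafenib libraries held 62.3, 72.8, 69.3 and 77.9 CPM, and anti-PD1 libraries 91.0, 87.8 and 102.4 CPM. The combination gave 80.3, 63.9, 67.2, 76.9 and 69.9 CPM, and the anti-CD40 agonist 70.1, 69.0 and 91.7 CPM. Tapbp is the member for which the combination mean (71.7 ± 6.81 CPM, SD, n = 5) came below the vehicle mean (74.5 ± 1.03 CPM, n = 4), a difference smaller than the spread of the combination libraries.

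Among the inducible proteasome subunits, Psmb8 stood at 10.6, 12.8, 15.2 and 12.2 CPM with vehicle and at 11.0, 14.7, 11.7 and 18.4 CPM under regorafenib. Anti-PD1 libraries held 19.2, 19.2 and 29.1 CPM, all above the other 16 libraries. Combination libraries held 17.1, 11.9, 11.5, 17.2 and 15.5 CPM, and anti-CD40 libraries 14.6, 11.1 and 15.5 CPM. Psmb9 had the same pattern at lower counts, with 5.16, 7.15, 8.26 and 7.99 CPM in vehicle libraries and 11.4, 11.5 and 16.4 CPM in anti-PD1 libraries. Psmb9 ranged from 5.22 to 10.4 CPM under regorafenib, 6.50 to 10.3 CPM under the combination and 5.57 to 9.85 CPM under the anti-CD40 agonist, all below the anti-PD1 libraries. Psmb10 differed from the other 9 members in that its anti-PD1 libraries (14.0, 12.4 and 15.2 CPM) overlapped the vehicle libraries (10.3, 8.06, 12.6 and 11.3 CPM).

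Nlrc5, the transactivator, was measured at 30.2, 39.3, 38.9 and 32.1 CPM with vehicle and at 41.0, 48.5 and 57.0 CPM under anti-PD1. The combination libraries (35.9 to 51.2 CPM) overlapped the anti-PD1 libraries almost fully, with a mean of 46.4 ± 6.10 CPM (SD, n = 5) against 48.9 ± 7.996 CPM (n = 3). Anti-CD40 libraries ranged from 28.2 to 54.5 CPM, a spread relative to the mean that only Tap1 exceeded in that group.

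A test for any difference among the 5 groups, edgeR's quasi-likelihood F test with Benjamini-Hochberg adjustment over 16909 genes, called B2m alone among the 10 (adjusted p = 0.0480), against 4.49% of all tested genes. Tapbp (adjusted p = 0.0599), H2-K1 (0.0611), Psmb8 (0.0722) and Tap2 (0.0834) followed above the threshold of 0.05, and the highest was Psmb10 at 0.376. At an unadjusted p under 0.05 the count was 7 members, against 25.9% of all tested genes. DESeq2's likelihood ratio test called 7 members among 2479 genes in all. The B2m call rested on single libraries: with 1 library left out at a time, its adjusted p ran from 0.0366 to 0.124 and passed in 2 of 19 cases. Over these 19 cases no member was called in 16, 1 member without anti-CD40 replicate 2, 2 members without vehicle replicate 2 and 4 members without anti-CD40 replicate 3.

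The comparison of anti-PD1 with vehicle asks what PD1 blockade alone did to the set. All 10 genes were higher under anti-PD1, by 0.33 (Tapbp) to 0.88 (Psmb9) on the log2 scale, with a median of 0.53 against -0.0007 over all tested genes, whose 95th percentile was 0.57. None of the 10 passed, since edgeR called 0 of 16909 genes (0%) in this comparison. The members' adjusted p-values ran from 0.197 to 0.482. At an unadjusted p under 0.05 the count was 10 of 10, against 9.32% of all tested genes. DESeq2 called 4 (H2-K1, B2m, Tap2 and Psmb8) among 71 genes in all. For 9 of 10 members, all but Psmb10, every anti-PD1 library lay above every vehicle library, against 4.59% of tested genes.

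Psmb9 and Psmb8 had the highest estimates, and sizes were not tested against each other. Psmb9 was higher by 0.88 ± 0.25 (log2 difference ± SE, edgeR adjusted p = 0.246) and Psmb8 by 0.83 ± 0.20 (adjusted p = 0.197), or 1.84- and 1.78-fold, while Psmb10 was higher by 0.40 ± 0.17. B2m was higher by 0.64 ± 0.16 and H2-K1 by 0.54 ± 0.13 (both adjusted p = 0.201), with H2-D1 at 0.33 ± 0.11. Tap1 (0.58 ± 0.24) and Tap2 (0.52 ± 0.13) were close to each other, Tapbp was at 0.33 ± 0.10 and Nlrc5 at 0.48 ± 0.19. Without anti-PD1 replicate 3, the library with the highest values, the differences ran from 0.24 to 0.68 with a median of 0.45, all 10 still positive, and 6 had an unadjusted p under 0.05. For this and the later unadjusted counts without that library, the share of all tested genes in the same fit is not given here.

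Anti-PD1 was also compared with the anti-CD40 agonist, and the same 3 anti-PD1 libraries serve here. All 10 genes were higher under anti-PD1, by 0.27 (Nlrc5) to 0.80 (B2m) on the log2 scale, with a median of 0.51 against -0.01 over all tested genes. EdgeR called 0 of 10 and 0% of tested genes. Unadjusted, 8 of 10 had a p under 0.05 against 10.3% of tested genes. DESeq2 called 2 members (H2-K1 and B2m) among 70 genes in all. The libraries of both groups were fully apart for 7 members, against 5.75% of tested genes. Tapbp, Psmb10 and Nlrc5 overlapped. Without anti-PD1 replicate 3 the differences were 0.15 to 0.60 (median 0.45), and 5 had an unadjusted p under 0.05.

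Adding regorafenib to anti-PD1 gave the opposite sign throughout, in a comparison that again uses the 3 anti-PD1 libraries. All 10 genes were lower in the combination than under anti-PD1 alone, by -0.07 (Nlrc5) to -0.62 (Psmb8) on the log2 scale, with a median of -0.37 against -0.003 over all tested genes. EdgeR called none of them, and 0.00591% of tested genes. Unadjusted, 8 of 10 had a p under 0.05 (not Tap1 or Nlrc5), against 9.94% of tested genes. Of the members DESeq2 called Tapbp only, among 108 genes in all. For 7 members (H2-K1, Tap1, Tap2, Tapbp, Psmb8, Psmb9 and Psmb10) every combination library lay below every anti-PD1 library, against 2.84% of tested genes. The smallest adjusted p was that of Tapbp, 0.128, at -0.39 ± 0.09 (log2 difference ± SE, edgeR). Psmb8 differed by -0.62 ± 0.19, B2m by -0.41 ± 0.15 and H2-K1 by -0.29 ± 0.13. Without anti-PD1 replicate 3 the median was -0.30, Nlrc5 was at 0.05, and the unadjusted count was 2.

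**Figure D2:**
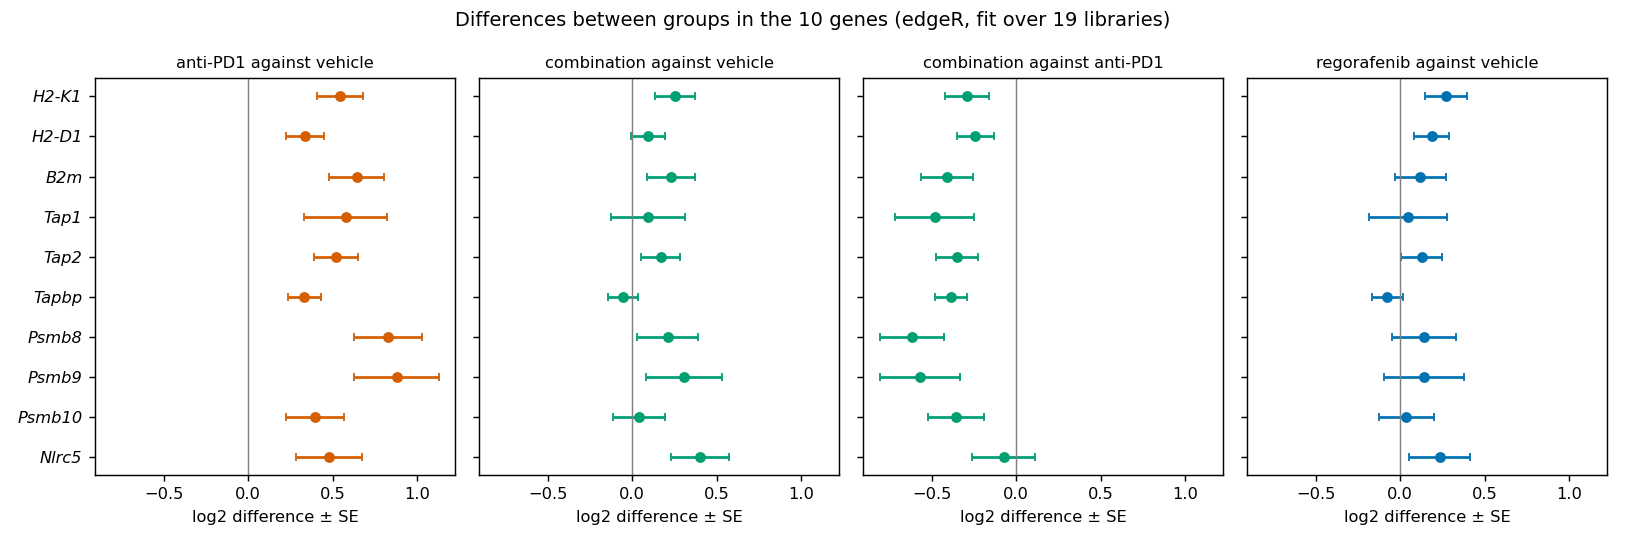
Log2 difference (horizontal axis, points) with its SE (bars) for each of the 10 genes in 4 comparisons from the same edgeR fit over 19 libraries. All points of anti-PD1 against vehicle are right of 0 (0.33 to 0.88), all points of the combination against anti-PD1 are left of it (-0.62 to -0.07), and those of regorafenib against vehicle lie between -0.08 and 0.27.

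Regorafenib alone had no member called against vehicle. Differences from vehicle ran from -0.08 to 0.27 (median 0.13, edgeR log2 scale), and 0 of 10 passed against 6.32% of all tested genes. DESeq2 called 0 members among 1651 genes in all. The unadjusted p was under 0.05 for H2-K1 alone (0.27 ± 0.13, adjusted p = 0.193), against 24.5% of tested genes. Of the 10 members, 9 were higher under regorafenib than under vehicle, and the libraries of both groups overlapped for all 10.

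The combination likewise had no member called against vehicle. Its differences ran from -0.05 to 0.40 (median 0.19), with 0 of 10 called by edgeR or DESeq2 and 0.0237% of tested genes called by edgeR. Unadjusted, H2-K1 (0.25 ± 0.12) and Nlrc5 (0.40 ± 0.17) had a p under 0.05, against 10.8% of tested genes. Against regorafenib alone the combination differed by -0.09 to 0.17 (median 0.04), with 0 of 10 called by edgeR or DESeq2 against 10.5% of tested genes, and 0 unadjusted against 28.1%. The anti-CD40 agonist differed from vehicle by -0.16 to 0.20 (median 0.05), with 0 of 10 called by either tool, 0% of tested genes called by edgeR, and 0 unadjusted against 6.06%. DESeq2 called 113 genes in all for the combination against vehicle, 2420 for the combination against regorafenib and 4 for the anti-CD40 agonist against vehicle. In these 3 comparisons the libraries overlapped for all 10 members. In these comparisons and in regorafenib against vehicle, the median SE was 0.15 to 0.17 on the log2 scale. Such comparisons could not show a difference of the size of the SE, and larger ones may also have been missed. In anti-PD1 against vehicle, Psmb8 at 0.83 ± 0.20 did not pass (edgeR adjusted p = 0.197). The lack of calls therefore does not show that the groups are equal.

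The 4 groups without the anti-CD40 agonist form a factorial of regorafenib and anti-PD1, in which the interaction tests whether the anti-PD1 difference depends on regorafenib. The interaction was negative for all 10 members, from -0.31 (Tapbp and Nlrc5) to -0.76 (Psmb8), with a median of -0.50 on the log2 scale against -0.005 over all tested genes. EdgeR called 0 of 10 (adjusted p from 0.133 to 0.607), against 0.627% of tested genes, and 7 had an unadjusted p under 0.05 against 15.8%. DESeq2 called 0 members among 566 genes in all. A dependence on regorafenib was therefore not established for any member. Without anti-PD1 replicate 3 the median was -0.39 and the unadjusted count 3.

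Averaged over both regorafenib states, the anti-PD1 differences were 0.12 to 0.52 (median 0.30) on the log2 scale, and edgeR called 0 of 10 against 0.544% of tested genes. The lowest adjusted p was 0.0768, for B2m at 0.38 ± 0.11. Unadjusted, 7 had a p under 0.05 against 22.3% of tested genes. DESeq2 called 4 members (B2m, Tap2, Psmb8 and Psmb9) among 949 genes in all. Without anti-PD1 replicate 3 these differences were 0.07 to 0.42 (median 0.26), and the unadjusted count was 5. Regorafenib averaged over both anti-PD1 states gave -0.24 to 0.08 (median -0.15), with 0 of 10 called by edgeR against 1.33%. Tapbp had the only unadjusted p under 0.05 there, against 19.1% of tested genes, at -0.23 ± 0.07 (adjusted p = 0.0725). It was the 1 member DESeq2 called, among 727 genes in all.

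The inducible subunits were next set against the constitutive subunits they replace, as a ratio of CPM per kilobase within each library, which does not depend on the scaling between libraries. Psmb8 amounted to 14.6% ± 2.79 (SD, n = 4) of Psmb5 with vehicle, 14.2% ± 3.17 (n = 4) under regorafenib, 26.2% ± 4.41 (n = 3) under anti-PD1, 17.7% ± 4.97 (n = 5) under the combination and 14.4% ± 2.83 (n = 3) under the anti-CD40 agonist. The 3 anti-PD1 libraries, at 23.1%, 24.3% and 31.2%, lay above the vehicle range of 11.1% to 17.7%, and the highest combination library reached 24.3%. Psmb9 amounted to 3.77% ± 0.676 of Psmb6 with vehicle and 6.87% ± 1.61 under anti-PD1. Psmb10 amounted to 7.14% ± 1.31 of Psmb7 with vehicle and 9.26% ± 1.01 under anti-PD1, with overlapping libraries. In a family of 9 two-sided exact permutation tests of log2 ratios, 3 anti-PD1 against 4 vehicle libraries gave p = 0.0571 for both Psmb8 and Psmb9, the smallest that these group sizes allow, and an adjusted p of 0.206. The combination against anti-PD1 gave exact p = 0.107 for Psmb8, 0.143 for Psmb9 and 0.0714 for Psmb10 (adjusted p from 0.206 to 0.214), and no test of the 9 passed. The denominator Psmb5 was at 53.7 ± 3.45 CPM per kilobase with vehicle, 60.3 ± 4.53 under regorafenib, 52.3 ± 4.43 under anti-PD1, 52.0 ± 5.49 under the combination and 58.7 ± 1.79 under the anti-CD40 agonist. Psmb6 was at 139.8 ± 4.54 with vehicle and 141 ± 1.96 under anti-PD1, and Psmb7 at 113 ± 10.3 and 115 ± 8.73.

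**Figure D3:**
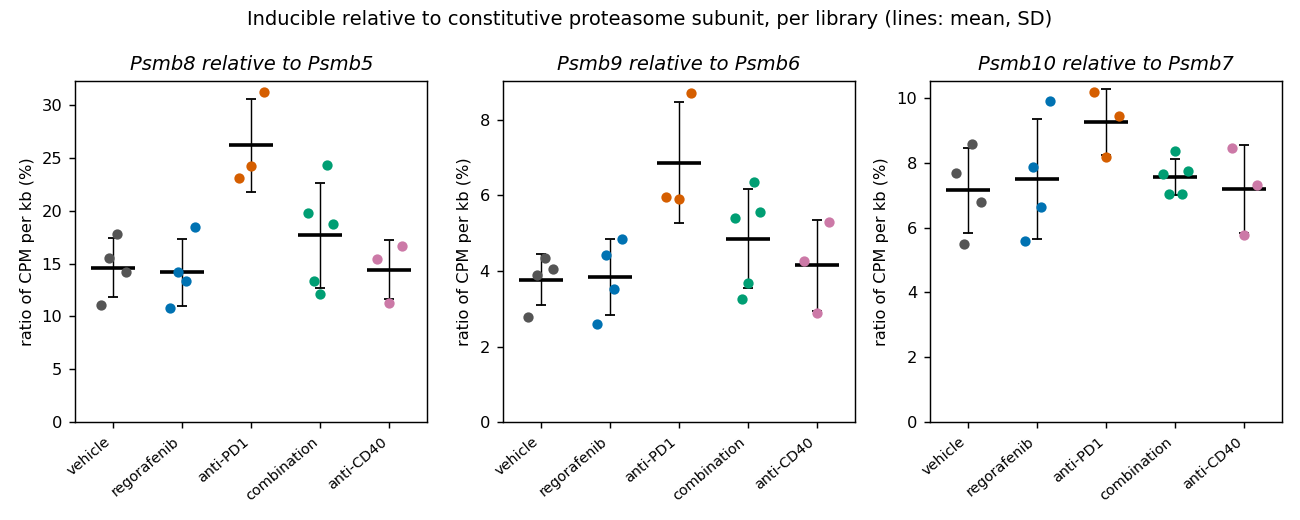
Inducible proteasome subunit as a percentage of the constitutive subunit it replaces, in CPM per kilobase (vertical axes, from 0), by treatment group, with libraries as points, group means as long bars and the SD as whiskers. The anti-PD1 libraries lie above all vehicle libraries for Psmb8 (23.1% to 31.2%) and Psmb9, but not for Psmb10.

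The 10 genes varied together from library to library. Over the 19 libraries, which differ in treatment and share the scaling, Pearson's r of log2 CPM between members had a median of 0.82 over 45 pairs and ran from 0.39 (Psmb10 and Nlrc5) to 0.96 (Psmb8 and Psmb9). Taken as deviations from group means the median was 0.81, so the members also varied together within treatment groups. Psmb9 followed the mean of the set most closely (r = 0.97) and Psmb10 least (r = 0.68). H2-K1 and H2-D1, whose reads may be shared, correlated at 0.95.

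Outside the set, the genes whose pattern over the 19 libraries was most like the members' mean were H2-Q7 (r = 0.95), H2-Q6 (0.94), H2-Q4 (0.93), H2-T10 (0.93), H2-T22 (0.89), Ifi47 (0.88), Igtp (0.88) and H2-T23 (0.88). The H2-Q and H2-T genes encode nonclassical class I heavy chains, and Ifi47 and Igtp encode interferon-inducible GTPases. Reads shared with H2-K1 and H2-D1 may contribute to the likeness of the H2-Q genes, and this was not tested. H2-Q6 was at 9.37 to 21.9 CPM with vehicle and 35.2 to 54.1 CPM under anti-PD1, a log2 difference of 1.30 ± 0.32 (edgeR adjusted p = 0.212). H2-T22 was at 44.9 to 63.8 CPM with vehicle and 71.5 to 105 CPM under anti-PD1 (0.58 ± 0.17, edgeR adjusted p = 0.246). These genes were chosen by their likeness to the members, so their difference is a description that follows in part from the choice. Without anti-PD1 replicate 3 it was 1.13 for H2-Q6 and 0.41 for H2-T22. Of 12 other heavy chain genes, 10 could be tested. All 10 had a positive anti-PD1 difference from vehicle (median 0.67), 8 with an unadjusted p under 0.05 (9.32% of all tested genes) and 0 passing.

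Of 12 further genes of peptide trimming and loading, 8 were higher under anti-PD1 than under vehicle (-0.14 to 0.48, median 0.07, edgeR log2 scale), 4 had an unadjusted p under 0.05 against 9.32% of all tested genes, and 0 passed. Over the 14 constitutive 20S proteasome genes the median was -0.004, the range -0.07 to 0.07, and 0 had an unadjusted p under 0.05. Under regorafenib, 2 of the 12 trimming and loading genes passed, against 6.32% of all tested genes: the chaperone gene Canx rose by 0.31 ± 0.08 (adjusted p = 0.0351) and the aminopeptidase gene Lnpep fell by 0.27 on the log2 scale (SE 0.07, adjusted p = 0.0369). In the combination against regorafenib Lnpep rose by 0.43 ± 0.07 (adjusted p = 0.00434), a call kept on leaving out each library in turn and lost with skeletal muscle markers as covariate. Its interaction was 0.49 ± 0.10 (adjusted p = 0.0442), lost on leaving out any of 12 single libraries. The class I-like gene Procr rose by 0.37 ± 0.11 (adjusted p = 0.0443) and Nfkb1, an NF-kappa-B subunit, by 0.32 ± 0.09 (adjusted p = 0.0469). Each of these 4 calls of regorafenib against vehicle was lost on leaving out any of several single libraries: 5 libraries for Canx, 6 for Lnpep, 7 for Procr and 6 for Nfkb1. Of 7 class II presentation genes, all 7 were higher under anti-PD1 than under vehicle with an unadjusted p under 0.05 (0.63 to 0.92, median 0.89) and 0 passed, a median above that of the 10 class I members. That order of medians was not tested.

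Genes of the interferon axis were read beside the set. Irf1, a transcription factor induced by interferon gamma, passed the test for any difference among the 5 groups (adjusted p = 0.0379). It was at 12.4 to 17.1 CPM with vehicle, 12.4 to 18.5 CPM under regorafenib, 19.9 to 29.6 CPM under anti-PD1, 12.8 to 20.3 CPM under the combination and 13.6 to 16.6 CPM under the anti-CD40 agonist. Irf1 was higher by 0.76 ± 0.17 under anti-PD1 than under vehicle (edgeR adjusted p = 0.171), and by 0.65 without anti-PD1 replicate 3. Ifng itself was too low to test. It had 0 reads in all 4 vehicle libraries, which allows at most 0.120 to 0.159 CPM there (3 counts of the total, counting error only), and 3, 1 and 4 reads in the anti-PD1 libraries. The regorafenib libraries held 2, 2, 2 and 0 reads. Combination libraries held 1, 0, 2, 3 and 1 reads, and anti-CD40 libraries 2, 0 and 1. Of the 16 genes of interferon ligands, receptors and signalling, 15 could be tested, 12 were higher under anti-PD1 (median 0.16), 5 had an unadjusted p under 0.05 (9.32% of all tested genes) and 0 passed.

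Of 10 receptors that bind class I, 8 could be tested. All 8 were higher under anti-PD1 than under vehicle (median 0.85), 5 with an unadjusted p under 0.05 (9.32% of all tested genes) and 0 passing. Under regorafenib 6 of 8 were higher (median 0.48) and 2 passed, against 6.32% of all tested genes. Cd8a, the coreceptor of CD8 T cells, was at 0.252 to 0.363 CPM with vehicle, 0.563 to 1.24 under regorafenib, 0.437 to 0.808 under anti-PD1, 0.349 to 1.78 under the combination and 0.522 to 0.546 under the anti-CD40 agonist. It rose under regorafenib against vehicle by 1.61 ± 0.42 on the log2 scale (edgeR adjusted p = 0.0328), a call lost on leaving out any of 7 single libraries. Its partner Cd8b1 rose by 1.56 ± 0.43 (adjusted p = 0.0377), lost without any of 4 libraries. Under anti-PD1, the Cd8a difference from vehicle was 1.11 ± 0.47 (adjusted p = 0.459).

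Leukocyte markers moved with the set. The 12 pan-leukocyte markers, among them Ptprc (CD45), summed to 75.0 to 109 CPM with vehicle, 97.2 to 127 CPM under regorafenib, 129 to 146 CPM under anti-PD1, 108 to 131 CPM under the combination and 87.0 to 104 CPM under the anti-CD40 agonist, and none was at 0 in all libraries. All 12 were higher under anti-PD1 than under vehicle (median log2 difference 0.62), 10 with an unadjusted p under 0.05 (9.32% of all tested genes) and 0 passing. Ptprc differed by 0.52 ± 0.16 (adjusted p = 0.277). Of the 12 markers, 3 passed edgeR's test for any difference among the 5 groups, against 4.49% of all tested genes. In anti-PD1 averaged over regorafenib, 2 of the 12 passed as higher, against 0.544%. Over the 19 libraries their mean log2 CPM and the mean standardised level of the 10 members correlated at r = 0.80, against 0.57 for T cell, 0.60 for macrophage, 0.19 for fibroblast, 0.06 for squamous epithelium, -0.12 for endothelium, -0.14 for skeletal muscle and 0.10 for salivary gland markers. The pan-leukocyte value was 0.74 over the 18 libraries left without anti-PD1 replicate 3. These correlations describe libraries that share treatment groups. Of 5 B cell markers only 1 could be tested, and their sum was at most 1.26 CPM. T cell markers (8 genes) summed to 18.4 to 21.4 CPM with vehicle and 17.8 to 26.4 CPM under anti-PD1, and macrophage markers (8 genes) to 154 to 232 CPM and 202 to 246 CPM. The T cell sum mostly follows Cd5, which averaged 13.9 CPM over the 19 libraries. Gene by gene, 7 of 8 T cell markers were higher under anti-PD1 than under vehicle (median 0.77, 5 with an unadjusted p under 0.05), as were 7 of 8 macrophage markers (median 0.39, 5 unadjusted). Under regorafenib all 8 T cell markers were higher than with vehicle (median 0.65) and 2 passed, against 6.32% of all tested genes. Fibroblast markers were higher under anti-PD1 for 6 of 6 genes (median 0.44, 2 unadjusted) and salivary gland markers for 8 of 8 (median 1.85, 0 unadjusted). None of these passed under anti-PD1, and their part in the members' differences was not tested apart from the covariate fits given next. The 10 squamous markers summed to 12445 to 17579 CPM with vehicle and 15292 to 18133 CPM under anti-PD1, and Krt5 differed by 0.06 ± 0.13. In regorafenib against vehicle, 8 of 10 squamous markers passed as higher and 4 of 12 skeletal muscle markers as lower, against 6.32% of all tested genes.

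**Figure D4:**
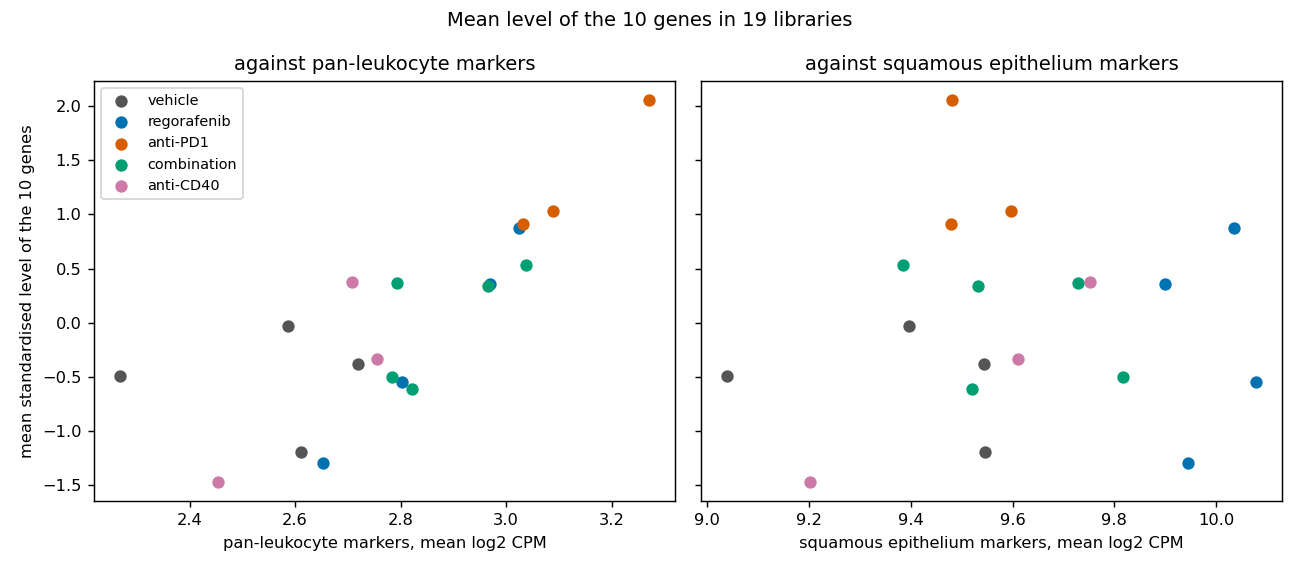
Mean standardised level of the 10 genes (vertical axis) against the mean log2 CPM of pan-leukocyte markers (left) and squamous epithelium markers (right). Each point is 1 of 19 libraries, coloured by treatment, and the points rise along the pan-leukocyte axis (r = 0.80) and scatter on the squamous axis (r = 0.06).

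With the pan-leukocyte level as a covariate in the same fit, the anti-PD1 differences from vehicle shrank from 0.33 to 0.88 to between -0.19 and 0.11, with a median of 0.04 and a median SE of 0.24. H2-K1 stood at 0.08 ± 0.19, B2m at 0.11 ± 0.23 and Psmb8 at 0.04 ± 0.26, and the signs of H2-D1, Tap1 and Nlrc5 reversed. For the combination against anti-PD1 the median went from -0.37 to -0.18, with Tapbp at -0.25 ± 0.09 and Nlrc5 at 0.22 ± 0.17. The interaction median went from -0.50 to -0.0006. Against vehicle, the median went from 0.13 to -0.17 for regorafenib, from 0.19 to -0.15 for the combination and from 0.05 to -0.02 for the anti-CD40 agonist. Members are themselves expressed in leukocytes and the covariate differs between the groups, so leukocyte content and level per cell cannot be told apart in these libraries. Skeletal muscle or salivary gland markers as the covariate left all 10 anti-PD1 differences positive, with medians of 0.54 and 0.53.

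**Figure D5:**
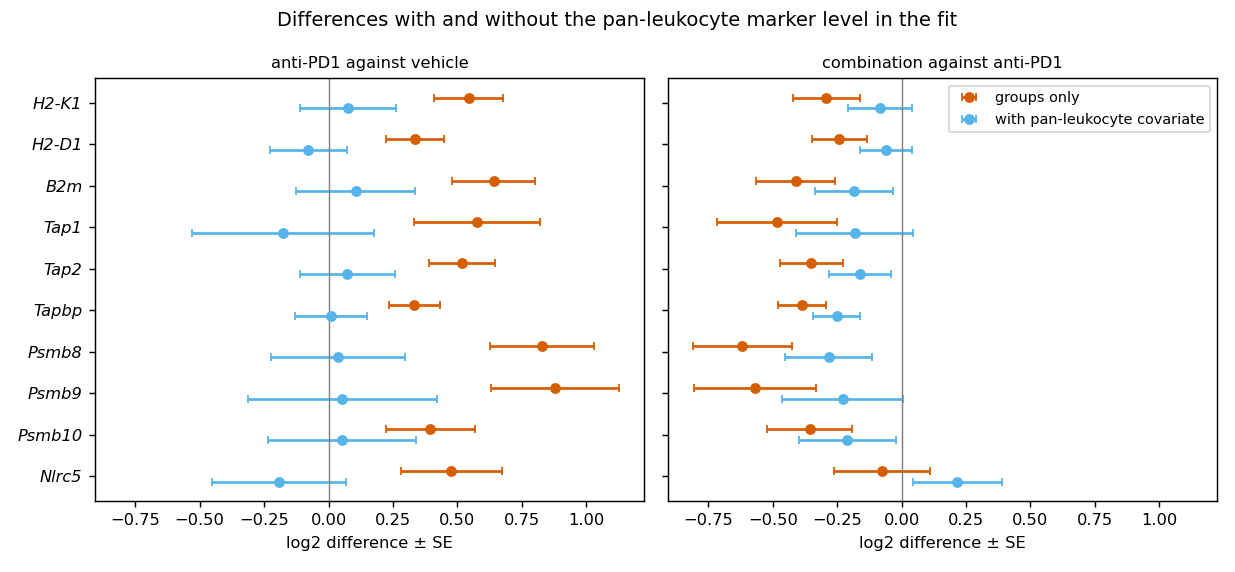
Log2 difference (points) with its SE (bars) for each of the 10 genes, from fits with the treatment groups only and with the pan-leukocyte marker level added, for anti-PD1 against vehicle (left) and the combination against anti-PD1 (right). With the covariate, the left-hand points move from 0.33 to 0.88 to around 0 (-0.19 to 0.11).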

How the data were processed

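RNA from 19 oral tumours was made into stranded polyA libraries, per the labels' protocols. Reads were trimmed with cutadapt 2.4 and aligned with STAR 2.7.2a to GRCm38, per the submitters' processing notes. For the counter, its strand setting and the annotation: not given in the sources used here. The deposited values are raw counts of reads per gene, and all 19 columns were mapped by name. Identifiers without version were matched to GENCODE M21 on GRCm38 (55227 of 55487). The 10 members and all gene lists were chosen with earlier results of these data known, so they are described beside the background of all genes.

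Groups came from the sample titles. EdgeR 4.0.16 (R 4.3.3) was run on the counts: filterByExpr kept 16909 genes holding 99.92% of counts, with TMM scaling and a robust quasi-likelihood fit of 1 mean per group over 19 libraries (14 residual degrees of freedom). Tests were two-sided, with Benjamini-Hochberg adjustment over all tested genes in each of 11 comparisons and no adjustment across comparisons. CPM are TMM-scaled, with a prior count of 2 for log2 CPM. DESeq2 1.42.0, RLE scaling, no filter, a replicate block, 3 marker covariates, fits of the compared groups only and omission of each library were alternatives. The ratio tests (exact permutation) were added after the data were seen. The fit was tested on simulated data. Each pair of libraries differed by more than sampling noise (the lowest chi-square divided by its degrees of freedom was 12.8). Total counts of 16776177 to 24969492 left at least 91 reads per member and library.

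Named genes were all members, up to 4 genes per list among those passing, Irf1, Ifng, Cd8a, Ptprc and Krt5, and the 8 other genes (mean of at least 1 CPM, no predicted symbols) most correlated with the members' mean; 1 further gene of the rule is not reported here. The labels give no batch or date.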

Additional observations from a re-analysis of the deposited data

How the results depend on the processing

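The number of members called by edgeR was 0 in every comparison of 2 groups and in the factorial contrasts, and DESeq2 gave 4 for anti-PD1 against vehicle, 4 for anti-PD1 averaged over regorafenib, 2 for anti-PD1 against anti-CD40, 1 for the combination against anti-PD1 and 1 for regorafenib averaged over anti-PD1. That last count was also 1 in the fit of the compared groups only and with skeletal muscle or pan-leukocyte markers as covariate. For any difference among the 5 groups, the count of 1 became 2 with no filter, 7 by DESeq2 and 3 with salivary gland markers as covariate; it was 0 with the replicate block and with skeletal muscle or pan-leukocyte markers as covariate, and 0 to 4 on leaving out 1 library at a time. The cause of these moves was not tested. Deviations of 33 same-numbered pairs of libraries correlated at a median of 0.03, 15 of them over 0.1, against a median of -0.06 for other pairs. Of the 19 libraries, 6 correlated best with a library of their own number. These values were not tested, so a pairing by replicate number was neither shown nor excluded. The column names number 4 libraries differently, and by those numbers the median over 27 pairs was -0.02, 12 of them over 0.1. With the replicate block, anti-PD1 differed from vehicle by 0.36 to 0.97 with 0 members called, and 5 calls of genes outside the set were lost (Canx, Lnpep, Nfkb1 and Procr in regorafenib against vehicle, and the interaction of Lnpep).

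Of 1303 alternative values of 73 single-gene differences, 1185 kept their sign and their side of the threshold, 17 newly passed it, 81 no longer did and 20 changed sign. The 81 could only be genes outside the 10, because no difference of a member had passed in the main fit. The 73 do not hold every member in every comparison. Over all 10 members, the pan-leukocyte covariate took the number of positive differences from 9 to 1 in regorafenib against vehicle. That number went from 9 to 1 in the combination against vehicle and from 6 to 2 in the anti-CD40 agonist against vehicle. Of the 20 changes of sign counted above, 17 came with the pan-leukocyte covariate. These were, for anti-PD1 against vehicle, H2-D1 (-0.078), Tap1 (-0.18), Nlrc5 (-0.19), H2-T10 (-0.21), Krt5 (-0.13) and Ptprc (-0.22). For H2-K1 in the combination against vehicle the value was -0.00983, for Nlrc5 in the combination against anti-PD1 0.22 and in anti-PD1 against anti-CD40 -0.27. For anti-PD1 averaged over regorafenib the values were -0.087 for H2-D1, -0.0685 for Tap1 and -0.014 for Nlrc5, and for the interaction 0.21 for Tap1, 0.0031 for Tapbp, 0.022 for Psmb8, 0.12 for Psmb9 and 0.36 for Nlrc5. The other 3 came from omitting a library: Nlrc5 in the combination against anti-PD1 was 0.052 without anti-PD1 replicate 3 and 0.004 without combination replicate 3, and Krt5 in anti-PD1 against vehicle was -0.022 without anti-PD1 replicate 3 and at most 0.139 in the other omissions. Psmb9 and Psmb10 have the fewest reads of the set, and Ifng is below what this depth can test.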
